A study of Mus musculus with 8 samples.

Results

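Natural killer (NK) cell and cytotoxic lymphocyte genes were followed in whole spleens of 8-week-old mice, as a set of 56 probe sets among 45037 on the array (control probe sets aside). The set was chosen by gene symbol: every probe set of the killer cell lectin-like receptor families Klra, Klrb, Klrc, Klrd, Klre, Klrg, Klri and Klrk, and the probe sets of 18 further genes of cytotoxic cells. It held 30 probe sets of the Klr families and 26 of the other genes, 40 genes in all. Of the 56, 52 were annotated to 1 gene and 4 jointly to Klr genes. Cd244 was matched through its present symbol Cd244a, and 1 probe set shared by Sh2d1b2 and Sh2d1b1 was left out because its joint annotation lies outside the Klr families. No probe set read here carried a Klri symbol.

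Spleen RNA of 4 Nix-null mice (Nix_KO) was compared with that of 4 wild-type mice (WT), 1 array per animal, with no treatment in either group. Nix is the mitochondrial protein encoded by Bnip3l. The labels do not say in which tissues it was deleted, and give neither the deleted part of the gene nor the mouse strain. The arrays are called Nix_KO 10, 2, 3 and 6 and WT 3, 4, 5 and 6, after the numbers in their titles, and values are given in that order. All 3 probe sets of Bnip3l are shared with a pseudogene and 0 of them passed the test (log2 differences of -0.50 to 0.58, limma adjusted p from 0.117 to 0.164, and 0 at an unadjusted p under 0.05), so they did not check the genotype labels. In whole spleen, fewer cells of a type, less RNA per cell and a smaller share of the RNA beside more RNA of other cells cannot be told apart.

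NK cells are lymphocytes that kill infected or transformed cells without prior sensitisation, and in the spleen they lie mostly in the red pulp. Inhibitory receptors that read class I molecules on the target restrain them, and activating receptors, which signal through small adaptor proteins, release perforin and granzymes from granules. Cytotoxic T cells share the granule proteins and several of the receptors, so most genes of this set mark both kinds of cell.

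Dim probe sets were set aside before testing: 4 or more arrays had to reach a log2 intensity of 5. This filter kept 30 of the 56 probe sets, 11 of the Klr families and 19 of the other genes, from 27 of the 40 genes. Of the 30, 18 were lower in Nix_KO spleens, 0 were higher and 12 did not pass (limma, adjusted p under 0.05 over all 22347 tested probe sets). At an unadjusted p under 0.05, 20 were lower and 0 higher. Among all tested probe sets 30.0% were called, 17.6% as lower and 12.5% as higher. The median log2 change was -0.79 over the 30, beside -0.12 over all tested probe sets. Klre1 passed the filter through WT arrays alone and so had to differ, and without it 17 of 29 were lower.

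In 18 of the 30, every Nix_KO array lay below every WT array, where the share over all tested probe sets was 19.5%. Klre1 is among these 18, and the filter fixed its separation in advance. The lower probe sets and those without overlap were not the same 18: Tyrobp separated the genotypes but did not pass, and Cd244a B passed although Nix_KO 10 lay above WT 4. Letters after a symbol number the probe sets of a gene, A being the brightest. The plot of every array shows the separated groups beside those that overlap.

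**Figure D1:**
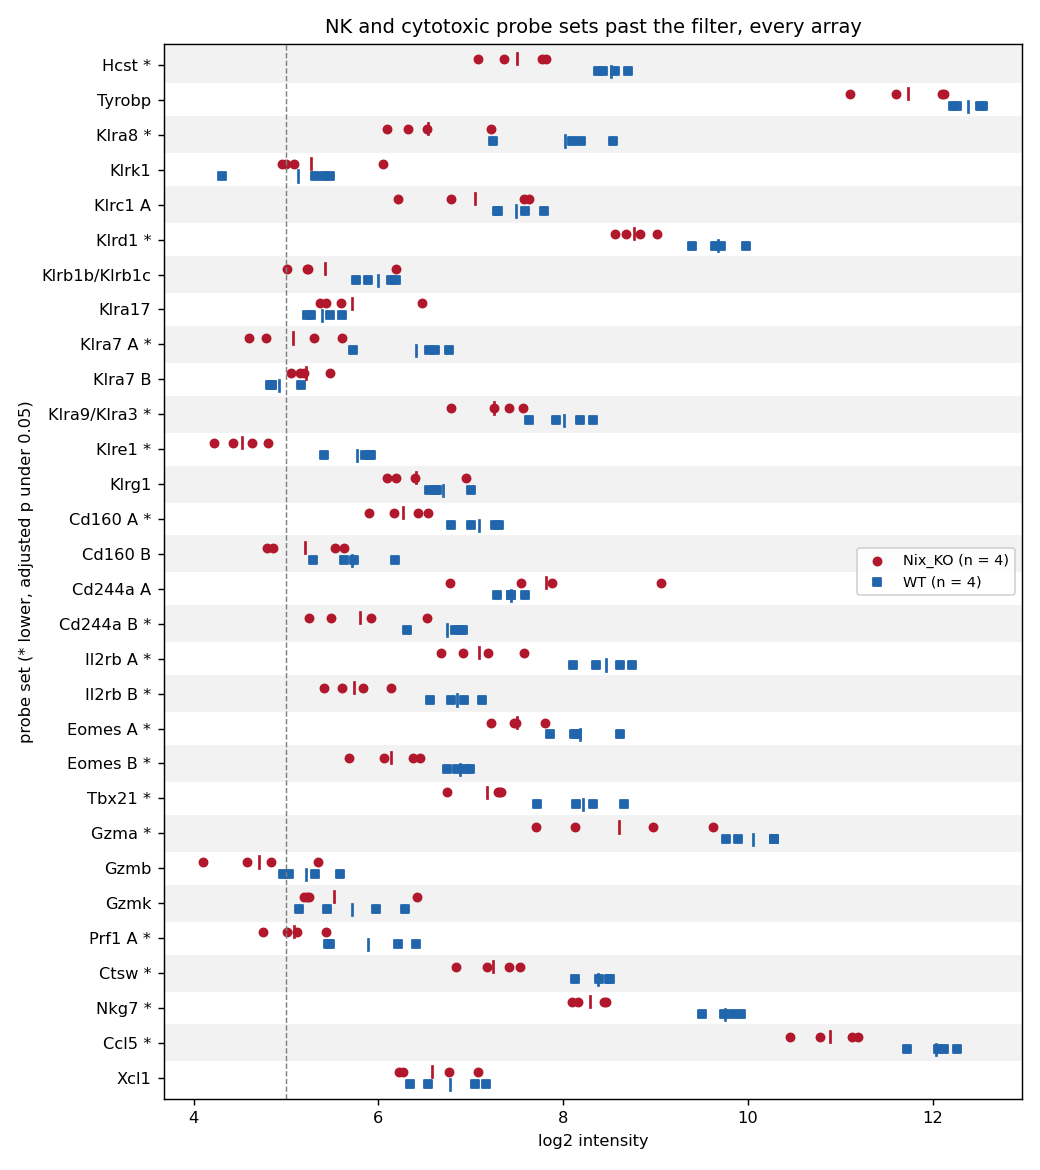
Log2 intensity (horizontal axis) of the 30 tested NK and cytotoxic probe sets (vertical axis, ordered by role) in the 4 Nix_KO arrays (red circles) and 4 WT arrays (blue squares), with vertical bars at the group means and a dashed line at the filter value of 5. Stars mark the 18 that were lower at an adjusted p under 0.05. For Nkg7 the Nix_KO arrays lie between 8.09 and 8.46, all below the WT arrays, while the groups of Klrk1 and Xcl1 overlap.

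Promoter sequences are printed for 5 members because the set holds both T-box factors of cytotoxic cells, Tbx21 and Eomes, whose target genes often carry the T-box letters, and because its Ly49 genes are near copies of each other. RefSeq promoters (build GRCm38.p6) were found for 32 of the 40 member genes, and the 250 bases before each start were searched on both strands. The motifs were the T-box core GTGTGA, the longer form AGGTGTGA that contains it, the RUNX motif TGTGGT and the STAT motif TTCNNNGAA. Nkg7 lies at chr7:43436888-43437137 on the + strand, Gzma at chr13:113100982-113101231 on the - strand and Gzmb at chr14:56262335-56262584 on the - strand. Capitals mark the longer T-box form in Nkg7, a gene that was lower, the RUNX letters on the other strand in Gzma, which was lower too, and the T-box core on the other strand in Gzmb, which did not pass.

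Nkg7: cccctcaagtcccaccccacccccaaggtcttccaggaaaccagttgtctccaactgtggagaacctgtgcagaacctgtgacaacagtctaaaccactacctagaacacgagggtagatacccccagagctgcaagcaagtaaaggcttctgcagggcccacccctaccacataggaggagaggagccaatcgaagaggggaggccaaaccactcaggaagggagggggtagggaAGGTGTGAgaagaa

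Gzma: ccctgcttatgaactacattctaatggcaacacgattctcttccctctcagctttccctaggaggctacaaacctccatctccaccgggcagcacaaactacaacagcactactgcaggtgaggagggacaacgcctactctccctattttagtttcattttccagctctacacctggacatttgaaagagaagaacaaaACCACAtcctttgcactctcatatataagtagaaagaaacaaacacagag

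Gzmb: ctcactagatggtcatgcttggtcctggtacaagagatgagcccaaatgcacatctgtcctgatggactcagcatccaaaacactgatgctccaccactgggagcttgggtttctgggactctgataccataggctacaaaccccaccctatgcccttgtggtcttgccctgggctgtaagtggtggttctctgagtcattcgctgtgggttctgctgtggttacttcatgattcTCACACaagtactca

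The Nkg7 site spans bases 14 to 7 before the start, the Gzma site bases 50 to 45 and the Gzmb site bases 15 to 10. Other matches were left in small letters. These are RUNX letters in Nkg7 (bases 83 to 78) and in Gzmb (bases 93 to 88 and 34 to 29), and STAT letters in Nkg7 (bases 220 to 212). Over the member genes, 9 of 32 held the T-box core (28.1%) beside 13.9% of 27025 genes with a promoter, and 1 of 32, Nkg7, held the longer form (3.12%) beside 1.3% of all genes. The RUNX letters stood in 16 of 32 member genes (50.0%) beside 15.9% of all genes, and the STAT letters in 5 of 32 (15.6%) beside 8.13%. By call, the T-box core stood in 3 of 13 genes with a lower probe set, in 3 of 8 that did not pass and in 3 of 11 that were not tested, and the RUNX letters in 5, 5 and 6 of these. The STAT letters stood in 3 of the 13, 0 of the 8 and 2 of the 11, and the gene with the longer T-box form was lower. A match is a run of letters, not a measured binding site.

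Klra8 lies at chr6:130129899-130130148 on the - strand and Klra7 at chr6:130233323-130233572 on the - strand. Both encode Ly49 receptors, and capitals mark the longest run that their upstream stretches share, 20 bases.

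Klra8: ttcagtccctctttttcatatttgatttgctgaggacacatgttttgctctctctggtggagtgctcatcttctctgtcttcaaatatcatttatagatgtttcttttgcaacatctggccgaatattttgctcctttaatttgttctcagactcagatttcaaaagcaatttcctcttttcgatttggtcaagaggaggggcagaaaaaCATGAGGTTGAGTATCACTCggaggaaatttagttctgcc

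Klra7: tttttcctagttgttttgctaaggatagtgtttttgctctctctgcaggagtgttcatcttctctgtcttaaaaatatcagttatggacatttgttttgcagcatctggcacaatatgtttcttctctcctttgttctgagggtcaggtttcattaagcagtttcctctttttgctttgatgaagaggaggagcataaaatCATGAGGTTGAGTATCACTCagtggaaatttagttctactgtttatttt

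Aligned without gaps, at the shift with the most matches, the 2 stretches were identical at 129 of 241 bases (53.5%). An alignment with gaps was not made and could give a higher share. Probe sets of the Ly49 genes can read transcripts of their near copies, so the assignment of a Ly49 signal to 1 gene is uncertain throughout. Of the 22 Klr genes in the set, 21 lie on chromosome 6 (RefSeq, GRCm38.p6), Klra22 has no entry there, and 0 of the 18 other genes lie on that chromosome.

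Among the adaptors, Hcst was lower and Tyrobp did not pass. Hcst encodes DAP10, the partner of the activating receptor NKG2D, and read log2 intensities of 7.77, 7.81, 7.08 and 7.36 in Nix_KO and 8.38, 8.56, 8.70 and 8.43 in WT spleens. The groups did not overlap, and the log2 change was -1.01 ± 0.19 (SE), a 2.02-fold fall (limma adjusted p = 0.00579). Tyrobp encodes DAP12, an adaptor that NK cells share with macrophages and other myeloid cells, and read 11.60, 12.12, 11.10 and 12.10 in Nix_KO and 12.26, 12.55, 12.51 and 12.22 in WT spleens. Its groups did not overlap either, by a small margin, and its log2 change of -0.65 ± 0.24 (SE) did not pass (limma adjusted p = 0.0619). It passed without Nix_KO 2 and without Nix_KO 6, with array weights and with quantile normalization, and its adjusted p across alternatives lay between 0.00904 and 0.36. Macrophages and monocytes, from which Tyrobp RNA can also come, had markers with a mean log2 intensity from 10.38 to 11.29 in Nix_KO and from 11.12 to 11.48 in WT arrays. Of these markers 3 of 12 were lower and 0 higher, where 21.3% of all genes, by brightest probe set, were lower and 13.1% higher. The part of these cells in the Tyrobp result was not tested.

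Of the activating receptors, Klra8 was lower and Klrk1 did not pass. Klra8, the Ly49H receptor known for recognising a protein of mouse cytomegalovirus, read 6.09, 7.22, 6.32 and 6.53 in Nix_KO and 7.24, 8.09, 8.19 and 8.54 in WT spleens. Nix_KO 2 came within a few hundredths of WT 3, but the groups did not overlap. The log2 change of -1.48 ± 0.32 (SE) was a 2.79-fold fall (limma adjusted p = 0.00855), the largest change among the 30. Klrk1, which encodes NKG2D itself, read 4.96, 5.08, 5.0 and 6.05 in Nix_KO and 5.48, 5.31, 4.31 and 5.41 in WT spleens, close to the filter value. Its groups overlapped and its log2 change of 0.14 ± 0.32 (SE) did not pass (limma adjusted p = 0.759, 95% interval from -0.58 to 0.87). Ncr1, the NKp46 receptor that defines NK cells, was not tested: it read 3.75, 3.81, 4.33 and 5.07 in Nix_KO and 4.71, 4.09, 3.94 and 4.09 in WT spleens. In all, 1 of the 8 arrays reached the filter value, so the most specific NK marker was not measured above it in the others, while Klrd1, Eomes and Gzma were.

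In the CD94 and NKG2 pair the common chain was lower. Klrd1 encodes CD94, which pairs with NKG2 chains to read the class Ib molecule Qa-1, and read 9.02, 8.56, 8.68 and 8.83 in Nix_KO and 9.64, 9.71, 9.39 and 9.98 in WT spleens. The groups did not overlap, with a log2 change of -0.91 ± 0.17 (SE), a 1.87-fold fall (limma adjusted p = 0.00584). Klrc1 A, for the inhibitory partner NKG2A, read 6.21, 7.58, 6.79 and 7.63 in Nix_KO and 7.29, 7.79, 7.28 and 7.59 in WT spleens. Here Nix_KO 2 and 6 lay among the WT values and Nix_KO 10 and 3 below them. The log2 change of -0.43 ± 0.31 (SE) did not pass (limma adjusted p = 0.315). With array weights Klrc1 A passed, at a change of -0.93 (limma adjusted p = 0.022, the lowest across alternatives, where the highest was 0.713). Klrc1 B, Klrc2, Klrc3 and the joint Klrc3/Klrc2 probe set were not tested, with all arrays under 5.

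Of the 4 tested probe sets of other Ly49 receptors, 2 were lower and 2 did not pass. Klra9/Klra3, a probe set shared by the Ly49I and Ly49C genes, read 6.78, 7.41, 7.25 and 7.56 in Nix_KO and 7.63, 7.92, 8.18 and 8.32 in WT spleens. The groups lay side by side without overlap (log2 change -0.77 ± 0.22 SE, limma adjusted p = 0.0262). This call was lost in 5 of the 8 fits that left out 1 array (without Nix_KO 10, Nix_KO 3, WT 4, WT 5 or WT 6) and with quantile normalization.

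Of the 2 tested probe sets of Klra7, the Ly49G receptor, 1 was lower and 1 did not pass. Klra7 A read 4.60, 5.30, 4.78 and 5.60 in Nix_KO and 6.55, 6.76, 5.72 and 6.61 in WT spleens, at least a 2.27-fold fall with values under 5 set to 5 (log2 change -1.34 ± 0.29 SE, limma adjusted p = 0.0088). Klra7 B read 5.15, 5.47, 5.19 and 5.05 in Nix_KO and 5.16, 4.85, 4.83 and 4.85 in WT spleens, and did not pass (log2 change 0.30 ± 0.15 SE, limma adjusted p = 0.17). The change of A minus that of B was -1.63. Klra17, the Ly49Q gene known from plasmacytoid dendritic and myeloid cells, read 6.47 in Nix_KO 10 and from 5.37 to 5.59 in the other Nix_KO arrays, against 5.23 to 5.60 in WT, and did not pass (log2 change 0.32 ± 0.25 SE, limma adjusted p = 0.345).

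Among the other lectin-like receptors Klre1 was lower, and Klrg1 and the Klrb1 probe set did not pass. Klre1, a receptor of NK cells, read 4.22, 4.80, 4.43 and 4.63 in Nix_KO and 5.41, 5.92, 5.85 and 5.91 in WT spleens. All 4 Nix_KO values were under 5 and all 4 WT values above it, at least a 1.71-fold fall (log2 change -1.26 ± 0.18 SE, limma adjusted p = 0.003). Klre1 passed the filter through WT arrays alone, so this separation was fixed in advance and its p is no support. Klrg1, an inhibitory receptor of mature NK cells and effector T cells that binds cadherins, read 6.19, 6.95, 6.09 and 6.40 in Nix_KO and 6.61, 7.00, 6.55 and 6.63 in WT spleens, and did not pass (log2 change -0.29 ± 0.21 SE, limma adjusted p = 0.319). With array weights Klrg1 passed, at a change of -0.54 (limma adjusted p = 0.0438, the lowest across alternatives, where the highest was 0.634). The probe set shared by Klrb1b and Klrb1c, of which Klrb1c encodes the NK1.1 antigen, read 5.01, 5.24, 5.23 and 6.19 in Nix_KO and 5.89, 6.19, 6.13 and 5.76 in WT spleens. Nix_KO 6 alone lay among the WT arrays. The log2 change of -0.57 ± 0.25 (SE) did not pass (limma adjusted p = 0.114), and it did without Nix_KO 6 and with array weights, the limma adjusted p across alternatives lying between 0.00955 and 0.897.

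Both immunoglobulin family receptors had 1 lower tested probe set and 1 that did not pass. Cd160 A, for a receptor anchored by a lipid that binds the herpesvirus entry mediator, read 6.43, 6.54, 5.90 and 6.17 in Nix_KO and 6.79, 7.26, 7.00 and 7.31 in WT spleens, a 1.78-fold fall without overlap (log2 change -0.83 ± 0.19 SE, limma adjusted p = 0.0113). Cd160 B changed by -0.51 ± 0.26 (SE) with overlap and did not pass (limma adjusted p = 0.158). Cd244a encodes 2B4, a receptor for CD48. Its probe set B read 6.52, 5.49, 5.25 and 5.92 in Nix_KO and 6.83, 6.31, 6.88 and 6.92 in WT spleens, and was lower (log2 change -0.94 ± 0.27 SE, limma adjusted p = 0.0295). Its brighter probe set A read 9.06, 7.88, 6.77 and 7.54 in Nix_KO and 7.43, 7.43, 7.28 and 7.59 in WT spleens, so Nix_KO 10 was far above all other arrays and Nix_KO 3 below them, and it did not pass (log2 change 0.38 ± 0.40 SE, limma adjusted p = 0.498). The call of Cd244a B was lost in 5 of the 8 fits that left out 1 array (without Nix_KO 2, Nix_KO 3, WT 3, WT 5 or WT 6), with array weights and without the filter.

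The shared receptor chain for IL-2 and IL-15, on which NK cells depend for survival, was lower on both probe sets. Il2rb A read 7.58, 6.92, 6.68 and 7.19 in Nix_KO and 8.11, 8.35, 8.75 and 8.62 in WT spleens, a 2.58-fold fall (log2 change -1.37 ± 0.23 SE, limma adjusted p = 0.00379). Il2rb B read 6.13, 5.61, 5.41 and 5.83 in Nix_KO and 6.56, 6.78, 6.93 and 7.12 in WT spleens, a 2.15-fold fall (log2 change -1.10 ± 0.20 SE, limma adjusted p = 0.00465). The same array, Nix_KO 3, was lowest on both, and the groups overlapped on neither.

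Both T-box transcription factors, which drive NK cell maturation and the cytotoxic programme, were lower. Tbx21, encoding T-bet, read 7.29, 7.33, 6.74 and 7.30 in Nix_KO and 7.72, 8.14, 8.32 and 8.66 in WT spleens, a 2.06-fold fall (log2 change -1.04 ± 0.23 SE, limma adjusted p = 0.00929). Eomes A read 7.49, 7.22, 7.80 and 7.47 in Nix_KO and 7.86, 8.12, 8.15 and 8.61 in WT spleens (log2 change -0.69 ± 0.20 SE, limma adjusted p = 0.0274), and Eomes B changed by -0.74 ± 0.19 (SE, limma adjusted p = 0.017). No array crossed between genotypes on these 3 probe sets. The calls of Eomes were the less stable: A was lost without Nix_KO 2, WT 4, WT 5 or WT 6, and B without WT 4 or WT 6, while Tbx21 passed whichever single array was left out.

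Among the proteins of killing, granzyme A and perforin were lower. Gzma, the granule serine protease of resting mouse NK cells, read 7.70, 8.97, 8.13 and 9.62 in Nix_KO and 10.28, 9.89, 9.76 and 10.28 in WT spleens, a 2.73-fold fall (log2 change -1.45 ± 0.38 SE, limma adjusted p = 0.0188). Nix_KO arrays were spread over a wider range (SD 0.86) than WT arrays (SD 0.27), without overlap. The call of Gzma was lost without WT 6 (limma adjusted p = 0.0548), and its adjusted p across alternatives lay between 0.00253 and 0.175. Prf1 A, for the pore-forming perforin, read 5.12, 4.75, 5.01 and 5.43 in Nix_KO and 5.48, 5.45, 6.21 and 6.41 in WT spleens, at least a 1.68-fold fall (log2 change -0.81 ± 0.26 SE, limma adjusted p = 0.0397). Its groups met at a few hundredths, and its call was lost in 5 of the 8 fits that left out 1 array (without Nix_KO 10, Nix_KO 2, Nix_KO 3, WT 5 or WT 6) and also without the filter (limma adjusted p = 0.0746) or when arrays were weighted (0.102).

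Granzymes B and K did not pass. Gzmb, which cleaves caspases in the target, read 4.10, 4.58, 4.84 and 5.34 in Nix_KO and 5.03, 5.31, 4.97 and 5.58 in WT spleens, near the filter value (log2 change -0.51 ± 0.26 SE, limma adjusted p = 0.164). Gzmb passed without Nix_KO 6 and with array weights, where alternatives gave adjusted p values between 0.0251 and 0.707. Gzmk read 5.23, 6.42, 5.25 and 5.19 in Nix_KO and 5.14, 5.97, 5.44 and 6.29 in WT spleens (log2 change -0.19 ± 0.33 SE, limma adjusted p = 0.693). Both sets of arrays overlapped for each. Gzmm, both probe sets of Fasl, the death receptor ligand, and Prf1 B were under the filter and were not tested.

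Nkg7, a membrane protein of cytotoxic granules, had the smallest adjusted p of the set. It read 8.16, 8.44, 8.09 and 8.46 in Nix_KO and 9.50, 9.84, 9.74 and 9.92 in WT spleens. More than a log2 unit lay between the highest Nix_KO and the lowest WT array. The log2 change was -1.46 ± 0.16 (SE), a 2.76-fold fall (limma adjusted p = 0.00191). Ctsw, cathepsin W, a protease of NK and cytotoxic T cells, read 7.53, 7.17, 6.84 and 7.41 in Nix_KO and 8.13, 8.51, 8.50 and 8.39 in WT spleens, a 2.21-fold fall without overlap (log2 change -1.14 ± 0.18 SE, limma adjusted p = 0.00359).

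Of the 2 chemokines, Ccl5 was lower and Xcl1 did not pass. Ccl5, a chemokine kept ready in memory T and NK cells, read 11.19, 10.78, 10.46 and 11.13 in Nix_KO and 11.72, 12.26, 12.06 and 12.12 in WT spleens, a 2.22-fold fall without overlap (log2 change -1.15 ± 0.20 SE, limma adjusted p = 0.00437). Xcl1, which attracts cross-presenting dendritic cells, read 6.26, 7.08, 6.22 and 6.76 in Nix_KO and 6.54, 7.16, 6.34 and 7.05 in WT spleens, with overlap (log2 change -0.20 ± 0.26 SE, limma adjusted p = 0.59).

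**Figure D2:**
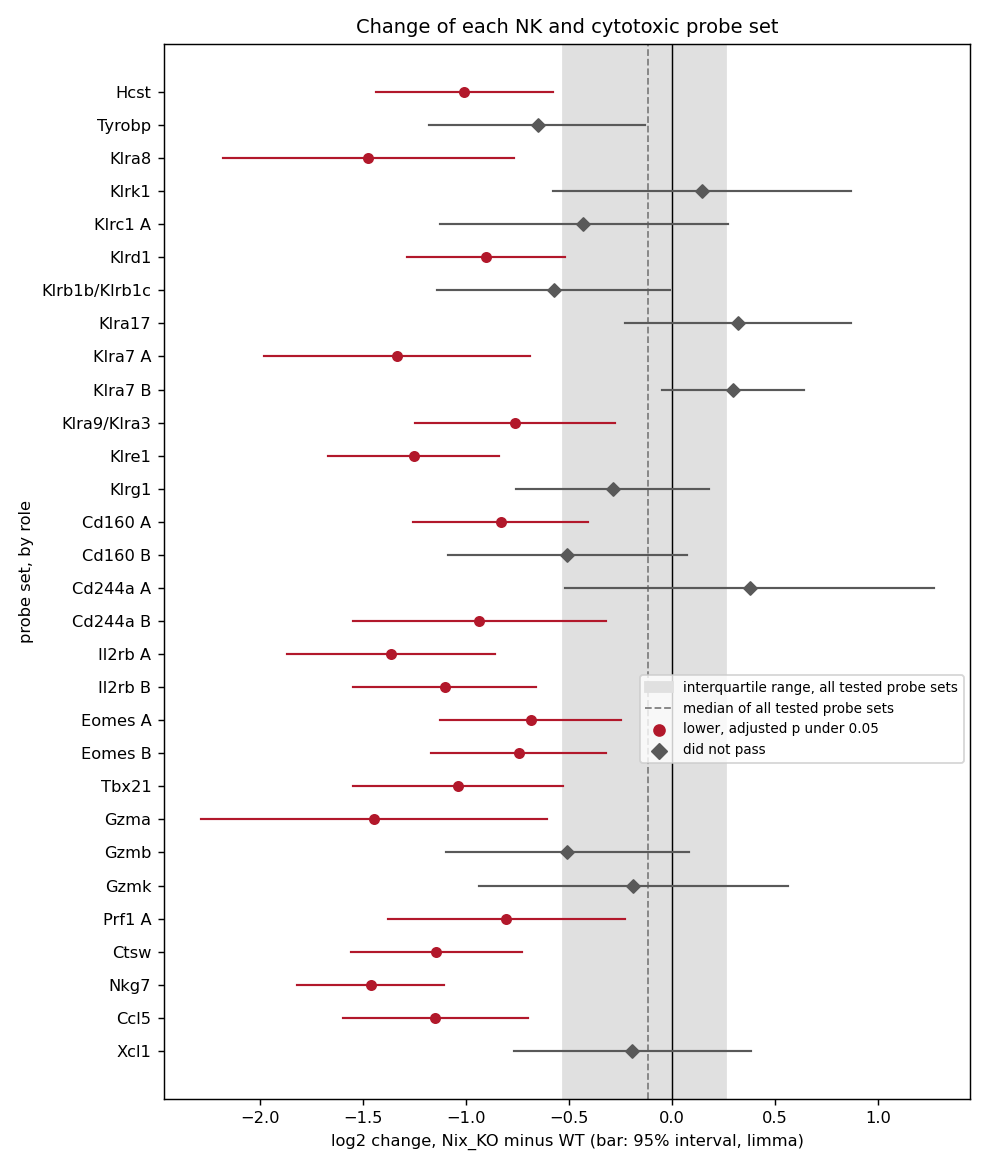
Log2 change, Nix_KO minus WT (horizontal axis), of each tested NK and cytotoxic probe set (vertical axis, by role), with the 95% interval from limma. Red circles are the 18 lower probe sets, from -1.48 for Klra8 to -0.69 for Eomes A, and grey diamonds the 12 that did not pass. The grey band is the interquartile range over all tested probe sets, from -0.53 to 0.26, and the dashed line their median of -0.12.

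Differences between members were tested for 13 pairs, 5 of probe sets of 1 gene and 8 of proteins that work together or share a class, by exact two-sided permutation of the genotype labels. With 4 arrays against 4 the smallest p possible is 0.0286. The pairs were chosen with the changes known. Of these, 5 pairs reached that smallest p, and with adjustment over the 13 none passed (adjusted p = 0.0743 for each of the 5). These were Klra7 A against B (-1.63), Cd244a A against B (1.32), Klrk1 against Hcst (1.16), Xcl1 against Ccl5 (0.96) and Il2rb A against B (-0.26), each the change of the first minus that of the second. Klrc1 A against Klrd1 (0.47, exact permutation p = 0.286), Eomes A against Tbx21 (0.36, exact permutation p = 0.229) and Gzma against Prf1 A (-0.64, exact permutation p = 0.257) were further from it. At this smallest p, 8 of the 13 pairs would have had to reach it for an adjusted p to pass, so these tests do not settle whether partners changed unequally.

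The 26 probe sets under the filter included 19 of the Klr families. Their medians ran from 3.62 to 3.83 in Nix_KO and from 3.41 to 3.55 in WT arrays. In 14 of the 26 the highest of the 8 arrays was Nix_KO 2, among them Klra16 A at 5.98, against 4.71, 4.68 and 4.62 in the other Nix_KO arrays and 4.38 to 4.61 in WT, and Klra1 at 4.49. The same array was highest in 64.0% of all 22690 probe sets under the filter, and its 25th percentile over all probe sets was a log2 intensity of 3.41, against 3.12 to 3.19 in the other Nix_KO and 3.03 to 3.13 in WT arrays. High values of dim members in Nix_KO 2 thus moved with a raised low end of that whole array, and no change is read from them. The other members under the filter included Klrb1b A, which reached 5.21 in Nix_KO 2, 5.57 in Nix_KO 6 and 5.03 in WT 3. Klrb1a reached 5.03 in Nix_KO 6, Klra2 5.09 in Nix_KO 2 and Klrb1b B 5.11 in Nix_KO 2, with every other array of these under 5. Klra5, Klra22/Klra1, Klra16 B, Klrb1f A and B, Klrg2, Cd160 C and D and Klrb1b C to E stayed under 5 in all arrays.

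**Figure D3:**
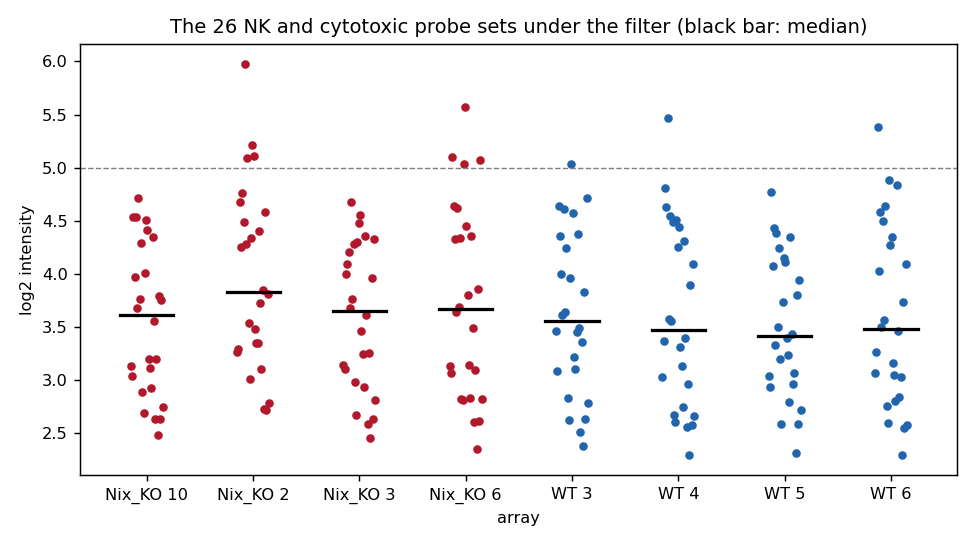
Log2 intensity (vertical axis) of the 26 NK and cytotoxic probe sets that were not tested, in each of the 4 Nix_KO arrays (red) and 4 WT arrays (blue), with a black bar at the median and a dashed line at the filter value of 5. The median of Nix_KO 2, at 3.83, is the highest of the 8.

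Genes around the receptors were read from fixed lists, 1 brightest probe set per gene, where 21.3% of all 11027 genes were lower and 13.1% higher. Counted this way, 14 of 23 member genes with a single-gene probe set were lower and 0 higher (15 and 0 at an unadjusted p under 0.05). Of 31 tested signalling genes downstream of NK and T cell receptors, 20 were lower and 0 higher, with a median log2 change of -0.93 beside -0.15 over all genes. The kinase gene Syk, which binds phosphorylated adaptors, fell 2.51-fold (limma adjusted p = 0.0035), the phospholipase gene Plcg2 2.31-fold (0.00381), the exchange factor gene Vav1 2.40-fold (0.00406) and the transcription factor gene Nfatc2 2.99-fold (0.00451). B cells use several of these genes as well.

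Of 23 tested genes of granule release and effector molecules, 6 were lower and 0 higher (median -0.42), a share of lower genes closer to that of all genes. Lta, lymphotoxin alpha, fell 2.35-fold (limma adjusted p = 0.00375), Was, the Wiskott-Aldrich actin regulator, 1.86-fold (0.0071), Ctsh, cathepsin H, 2.10-fold (0.00715), and Coro1a, an actin-binding coronin, 1.93-fold (0.00848). The fusion genes of the granule pathway did not pass: Unc13d changed by -0.52, Stxbp2 by -0.42, Rab27a by -0.29 and Stx11 by 0.21 on the log2 scale (limma adjusted p = 0.0647, 0.127, 0.289 and 0.414). These 4 were named after their values were seen.

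Of 28 tested transcription factors, cytokines and receptors of NK development, 14 were lower and 0 higher (median -0.66). Which cells of the spleen their RNA came from was not tested. Il21r, the receptor for IL-21, fell 3.59-fold (limma adjusted p = 0.00476), Runx3, a factor of cytotoxic lineages, 2.41-fold (0.00532), its partner gene Cbfb 2.01-fold (0.011) and the kinase gene Jak3, which signals from the IL-2 and IL-15 receptor, 2.50-fold (0.00978). Il15 itself, named after its value was seen, read 5.42, 5.74, 5.02 and 6.06 in Nix_KO and 5.89, 5.64, 5.32 and 5.38 in WT spleens. Its groups overlapped and did not pass (limma adjusted p = 0.995). Of 15 tested ligand and target cell genes, 6 were lower and 0 higher (median -0.41). They included the peptide transporter genes Tap1, 2.35-fold (limma adjusted p = 0.00336), and Tap2, 2.65-fold (0.00495), and the class I genes H2-K1, 1.55-fold (0.0167), and H2-D1, 1.49-fold (0.0192), whose products the Ly49 receptors read.

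Other lymphocytes moved with the set. Of 17 T cell markers, 9 were lower and 0 higher (median -0.87). Those with the lowest adjusted p were the co-receptor gene Cd8a, 2.12-fold, the zeta chain gene Cd247, 1.91-fold, Ccr7, 1.99-fold, and Thy1, 2.68-fold. Further T cell markers were named with their values known. Cd3d and Cd3e were lower with overlapping groups, and Cd3g and Cd4 did not pass (limma adjusted p = 0.0638 and 0.335). All 11 B cell markers were lower (median -1.39). The mean level of the T cell list was 8.93 in Nix_KO 10, within the WT range of 8.83 to 9.32, and 7.86 to 8.20 in the other Nix_KO arrays. The 30 NK and cytotoxic probe sets did not share that exception: their mean was 6.71 in Nix_KO 10, 6.83, 6.46 and 6.94 in the other Nix_KO arrays, and 7.29 to 7.65 in WT arrays. All 10 erythroid markers were higher, with list means from 12.69 to 13.17 in Nix_KO and from 9.95 to 11.80 in WT arrays, and so were all 12 neutrophil and myeloid precursor markers, from 10.04 to 10.93 in Nix_KO and from 7.19 to 9.69 in WT arrays. Dendritic cell markers were lower in 6 of 8 (median -1.19) and stroma and endothelium markers in 9 of 12 (median -1.09), with 0 higher in either list. The part of these cells in the lower NK and cytotoxic levels was not tested. Mast cell and basophil markers were largely below the filter, with 2 of 7 tested and 0 called (limma, 1 lower and 0 higher at an unadjusted p under 0.05).

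Pancreatic acinar markers, a tissue next to the spleen, were high in 3 arrays. Their list mean was 12.99 in Nix_KO 3, 11.94 in WT 3 and 9.87 in WT 5, against 5.14 to 6.17 in the other Nix_KO arrays and 5.78 to 7.33 in the other WT arrays. Within its genotype, Nix_KO 3 was the lowest array for 15 of the 30 NK and cytotoxic probe sets, WT 3 for 14 and WT 5 for 11. Among the other arrays Nix_KO 10 was lowest for 9, Nix_KO 2 for 4, Nix_KO 6 for 2, WT 6 for 3 and WT 4 for 2. The same shares over all tested probe sets were not counted, and the part of the pancreatic signal was not tested. Without these 3 arrays the median log2 change over all 30 probe sets was -0.86 in place of -0.79. Over the 18 lower probe sets it was -1.08 in place of -1.07. The 18 were chosen by their calls in the main fit, which shares the remaining arrays, so their similar median is no separate test. With 3 Nix_KO arrays against 2 WT arrays, 2 of the 30 passed, Nkg7 and Klre1, the second of which had to differ through the filter, and 15 were lower at an unadjusted p under 0.05, while 0.85% of all probe sets were called lower.

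**Figure D4:**
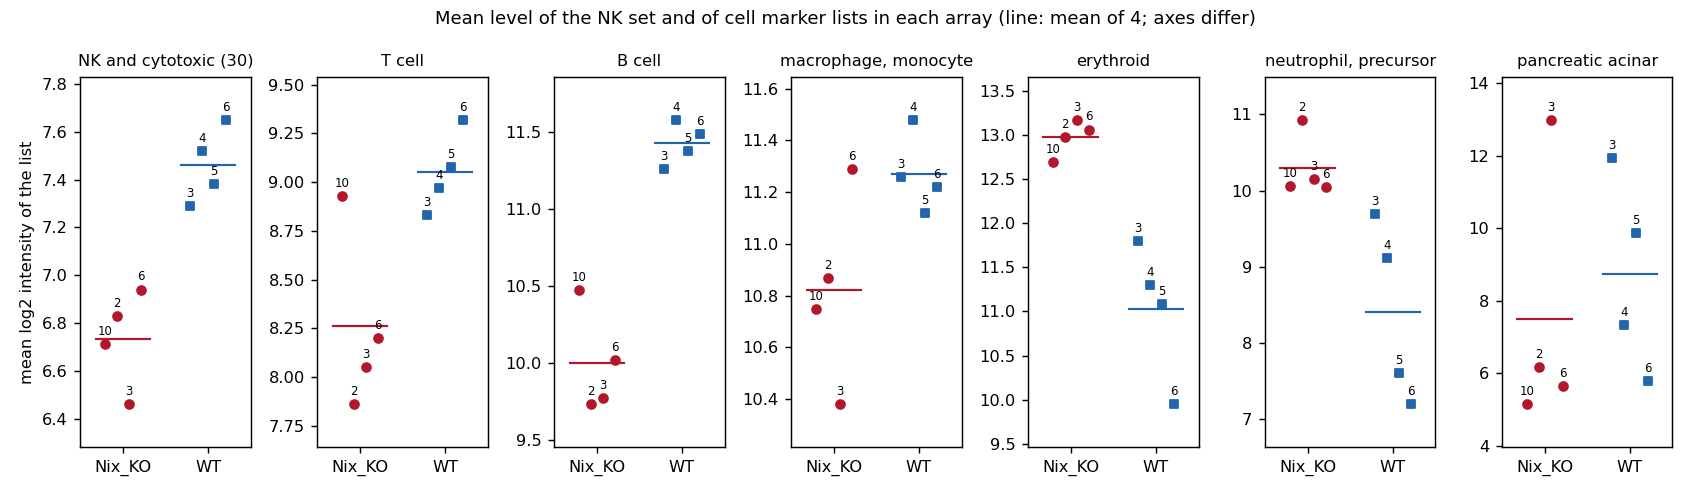
Mean log2 intensity (vertical axis, a scale of its own in each panel) of the 30 NK and cytotoxic probe sets and of 6 cell marker lists, in Nix_KO arrays (red circles) and WT arrays (blue squares), each labelled with its number, with a line at the mean of 4. The NK and cytotoxic means do not overlap between genotypes, at 6.46 to 6.94 in Nix_KO and 7.29 to 7.65 in WT, while Nix_KO 3, WT 3 and WT 5 stand out for pancreatic acinar markers.

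**Figure D5:**
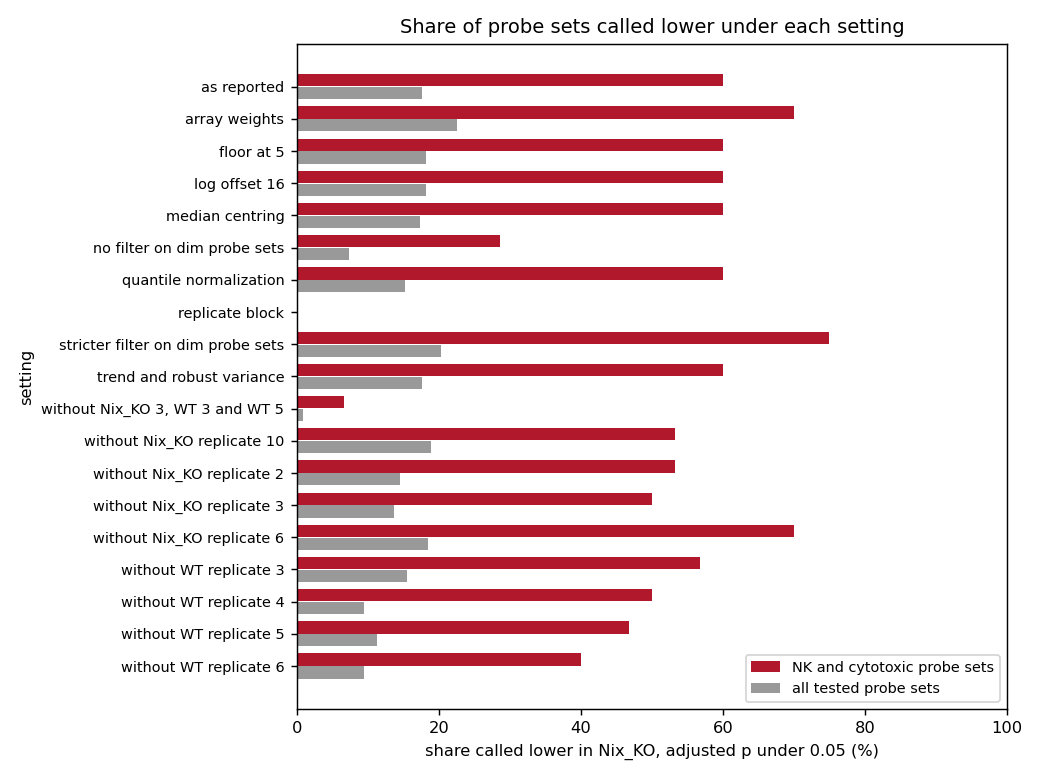
Share of probe sets called lower in Nix_KO (horizontal axis, percent, adjusted p under 0.05) under each setting (vertical axis), for the NK and cytotoxic set (red) and for all tested probe sets (grey). The share in the set runs from 40.0% without WT 6 to 70.0% without Nix_KO 6 when 1 array is left out, and is 6.67% without the 3 arrays with pancreatic signal and 0 with the replicate block. The share over all tested probe sets is 9.43%, 18.4%, 0.85% and 0.00447% in these fits.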

How the data were processed

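RNA of 8 spleens, 4 Nix_KO and 4 WT, was measured on 1 Affymetrix array each. For each array the authors deposited a single intensity for every probe set, made with GCRMA per the submitters' processing notes; its version, and the step to the linear scale of the intensity values, are not given in the sources used here. Array medians ran from 28.84 to 30.61 intensity units. The number of arrays, 4 per genotype, limits the precision.

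Intensities were log2-transformed with no offset, and probe sets with a log2 intensity of at least 5 in at least 4 arrays were tested, 22347 of 45037 after 64 controls were left out. Genotypes were compared with limma 3.58.1 under R 4.3.3 (lmFit and eBayes, two-sided). Benjamini-Hochberg adjustment ran over every tested probe set, at a threshold of 0.05. An adjusted p of a gene is from this fit unless an alternative is named beside it. Where genes are counted, a gene stands by its brightest tested single-gene probe set. Symbols came from the platform annotation, updated through Entrez identifiers. Where values under 5 entered, a fall is given as at least the size with those values set to 5. The script was tested on simulated data. Figures were drawn with matplotlib 3.10.9.

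The members, gene lists and pairs were chosen with earlier results of these data known. Every tested member is given with its values and the other members by name, with values for some, and of each list the called genes with the lowest adjusted p, at most 4. Some of the listed genes were not analysed here. Alternatives were other filters, scalings, an offset of 16, variance models, the replicate block, single arrays left out, the 3 arrays with pancreatic signal left out, the mean of a gene's probe sets, and, added after seeing the data, a floor of 5. The labels call the samples separate animals of each genotype and give no batch.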

Additional observations from a re-analysis of the deposited data

Results flagged for a closer look

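An array far from the other 3 of its genotype was looked for in each of the 30 tested probe sets and both genotypes, 60 groups in all, and 7 were found by Dixon's gap ratio, where chance flags about 1 in 20 groups. Among Nix_KO arrays, Gzmk was 6.42 in Nix_KO 2, against 5.19 to 5.25 in the others. Klrk1 was 6.05 in Nix_KO 6, against 4.96 to 5.08. Tbx21 was 6.74 in Nix_KO 3, against 7.29 to 7.33. Among WT arrays, Cd244a B was 6.31 in WT 4, against 6.83 to 6.92 in the others. Klra7 B was 5.16 in WT 3, against 4.83 to 4.85, and Klre1 was 5.41 in WT 3, against 5.85 to 5.92. Klrk1 was 4.31 in WT 5, against 5.31 to 5.48. Of these probe sets, Tbx21 passed in each of the 8 fits without 1 array. So did Klre1, but it had to differ through the filter. Cd244a B lost its call without WT 3, WT 5, WT 6, Nix_KO 2 or Nix_KO 3.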

How the results depend on the processing

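Of the 18 lower probe sets, 12 passed in each of the 8 fits without 1 array, 0 passed under every alternative, and 0 called changes reversed. Among the 12 was Klre1, which had to differ through the filter. With 1 array left out, lower calls ran from 12 (without WT 6) to 21 (without Nix_KO 6) of the 30 probe sets, from 11 to 16 for member genes, from 14 to 22 for signalling genes, from 5 to 8 for granule genes, from 6 (without WT 4) to 15 for transcription factors and cytokines, from 2 (without WT 4 or WT 6) to 7 for ligands and from 4 (without WT 6) to 12 for T cell markers. The transcription factor and cytokine count was 9 without Nix_KO 3, 8 without WT 5 and 7 without WT 6, and the T cell count 5 without WT 4 or WT 5. Higher calls were 0 throughout. The 6 gene sets, in this order, held 23, 31, 23, 28, 15 and 17 tested genes. The share called lower over all tested probe sets moved as well. It was 9.38% without WT 4, 9.43% without WT 6, 18.4% without Nix_KO 6 and 18.9% without Nix_KO 10, beside 17.6% with all arrays. With array weights 11 of 23 granule genes were lower in place of 6, while 22.5% of all probe sets were called lower in place of 17.6%.

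With the replicate block, on the 4 arrays whose numbers 3 and 6 occur in both genotypes, limma called 0 in each of these 7 sets, and 15 of the 30 probe sets were lower at an unadjusted p under 0.05. For member genes that unadjusted count was 12, and for the signalling, granule, transcription factor, ligand and T cell lists 22, 6, 9, 4 and 10. This fit leaves 4 arrays, and 0.00447% of all probe sets passed. The labels do not pair the animals. The deviations of arrays with the same number correlated at 0.252 (number 3) and 0.147 (number 6). For different numbers the correlation was -0.319 (Nix_KO 3 with WT 6) and 0.0526 (Nix_KO 6 with WT 3). Without Nix_KO 3, WT 3 and WT 5, lower calls were 2 probe sets, 2 member genes, 1 signalling gene, 3 granule genes and 0 in the transcription factor, ligand and T cell lists (limma, 14, 7 and 8 at an unadjusted p under 0.05). In that fit 0.85% of all probe sets were called lower. Without the filter 16 of 56 probe sets were lower (28.6%, beside 7.28% of all).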

Other observations

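Zbtb16, which encodes the factor PLZF of innate-like T cells and was named after its values were seen, read log2 intensities of 7.52, 3.86, 7.16 and 3.81 in Nix_KO 10, 2, 3 and 6, against 6.84, 6.53, 7.55 and 6.62 in WT 3, 4, 5 and 6. The Nix_KO arrays thus lay in 2 separate ranges, and the difference between genotypes did not pass (log2 change -1.30 ± 0.83 SE, limma adjusted p = 0.261). Klrk1 and the probe set shared by Klrb1b and Klrb1c were highest among Nix_KO arrays in Nix_KO 6, at 6.05 and 6.19, as were Gzma at 9.62 and Prf1 A at 5.43. These were picked with their values known. Over the 30 probe sets, Nix_KO 6 was highest within its genotype for 11, Nix_KO 2 for 10, Nix_KO 10 for 8 and Nix_KO 3 for 1. The probe set shared by Sh2d1b2 and Sh2d1b1, left out of the set, read 4.77, 5.84, 5.08 and 6.07 in Nix_KO and 4.89, 5.74, 4.91 and 5.88 in WT spleens and did not pass (log2 change 0.08 ± 0.34 SE, limma adjusted p = 0.874).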
